A study of Arabidopsis thaliana with 12 samples.

Results

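The genes LTP1 to LTP6 encode the classical lipid transfer proteins of Arabidopsis thaliana, and their transcript levels were taken from RNA sequencing of seedlings that lack the chromatin remodelling ATPase BRM, the bromodomain proteins BRD1, BRD2 and BRD13, or both. The 6 members were found by their gene identifiers, each in a record of its own, among 31837 gene records. The set was chosen by name within the family and selected on these same FPKM values, which were already known when it was proposed, so the levels and ratios that follow are a description and carry no test. Whole seedlings of the Col-0 ecotype (written CoL-0 in the labels) were harvested 14 days old from long days, in 12 libraries with 3 for each of 4 genotypes. These were WT, the mutants brm-1 and brd1,2,13, and the genotype brm-1 brd1,2,13, which is referred to as the combined mutant. brm-1 is a mutant of BRM, brd1,2,13 joins mutations of the 3 BRD genes, and no other treatment or transgene is named in the labels. The labels do not say whether the libraries of a genotype came from separate plantings. The deposited table gave 1 FPKM value per record and genotype (fragments per kilobase of transcript, scaled for sequencing depth), so no spread between libraries and no error can be set beside any value, and the depth is unknown.

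Lipid transfer proteins of this type are small secreted proteins, held together by disulfide bridges around a hydrophobic tunnel that takes up the acyl chains of lipids. In land plants they are abundant at the surface of the shoot, where they are thought to take part in bringing cuticle lipids to the outer wall, and several are known as genes of drought, cold, abscisic acid and pathogen responses. BRM is the motor subunit of a SWI/SNF complex, which moves or evicts nucleosomes, and the BRD proteins are subunits of the same complex.

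The 6 genes sit at 4 places in the genome (TAIR10, positions as in the deposited table). LTP2 (AT2G38530, chr2:16128378-16129158) and LTP1 (AT2G38540, chr2:16130350-16131174) are tandem genes on the plus strand with 1191 bases between their records. LTP4 (AT5G59310, chr5:23925085-23925852, minus strand) and LTP3 (AT5G59320, chr5:23928971-23929745, plus strand) point away from each other, with 3118 bases between them and no other record there. LTP5 (AT3G51600, chr3:19138394-19139252) and LTP6 (AT3G08770, chr3:2664130-2664834) lie on the minus strand of chromosome 3. All 6 share 1 layout in RefSeq (assembly TAIR10.1): 2 exons, with an intron of 94 to 138 bases that leaves 10 coding bases for the second exon, and between 112 and 118 codons before the stop. None of the 6 records overlapped another record.

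The pair LTP3 and LTP4 carried the largest differences between genotypes, so the first 230 coding bases of each are given, read from the TAIR10.1 genome of RefSeq. LTP3 lies at chr5:23929051-23929280 on the plus strand and LTP4 at chr5:23925543-23925772 on the minus strand. Both are written 5′ to 3′ from the start codon, and capitals mark the 30 positions at which they differ.
LTP3: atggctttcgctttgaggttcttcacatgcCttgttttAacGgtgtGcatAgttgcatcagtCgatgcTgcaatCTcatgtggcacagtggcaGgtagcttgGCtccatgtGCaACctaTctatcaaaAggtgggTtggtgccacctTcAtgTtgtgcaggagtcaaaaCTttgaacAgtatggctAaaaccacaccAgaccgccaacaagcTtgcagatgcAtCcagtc
LTP4: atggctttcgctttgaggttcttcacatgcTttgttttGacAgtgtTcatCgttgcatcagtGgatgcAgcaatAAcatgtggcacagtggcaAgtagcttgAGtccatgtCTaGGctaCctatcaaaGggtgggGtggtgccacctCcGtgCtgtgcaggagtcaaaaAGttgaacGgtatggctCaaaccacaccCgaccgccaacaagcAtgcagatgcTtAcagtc
Over the whole coding sequence 294 of 339 aligned bases were identical (86.7%), with 9 gap bases. The longest run that both transcripts shared was 44 bases, and no run of 50 bases was common to both. How long the reads were is not known here, and how far reads of LTP3 and LTP4 could be exchanged was not tested. LTP1 and LTP2 were 82.4% identical (294 of 357 bases) with a longest shared run of 40 bases. Every other pair of members lay between 54.3% and 67.8%, with no shared run over 17 bases.

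The levels fell into 3 tiers in WT. LTP1 and LTP5 were among the most abundant transcripts of the seedling, LTP2 and LTP6 were moderately abundant, and LTP3 and LTP4 were the lowest, at 4.28 and 0.630 FPKM. LTP1 stood at 2188.71 FPKM in WT, 1396.28 in brm-1, 1821.96 in brd1,2,13 and 1157.37 in the combined mutant. By level it ranked 40th, 54th, 45th and 68th of all records in that order. LTP5 stood at 875.3, 788.0, 657.5 and 686.9 FPKM in the same order of genotypes. Both genes were highest in WT. LTP2 stood at 141.5, 299.1, 189.6 and 321.1 FPKM, lowest in WT and highest in the combined mutant. LTP6, at 135.8 FPKM in WT, had nearly the same level as LTP2 there, but with 105.8, 153.5 and 85.1 FPKM it kept below LTP2 in every mutant. LTP3 had 4.28 FPKM in WT against 73.4 in brm-1, 87.3 in brd1,2,13 and 51.0 in the combined mutant. LTP4 had 0.630 FPKM in WT against 21.5, 31.4 and 9.89 FPKM. Both were lowest in WT, and of the mutants they were highest in brd1,2,13 and lowest in the combined mutant. Thus the order of the 6 levels, LTP1, LTP5, LTP2, LTP6, LTP3, LTP4 from the top, was the same in all 4 genotypes, while the lowest 2 genes moved up towards LTP6.

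**Figure D1:**
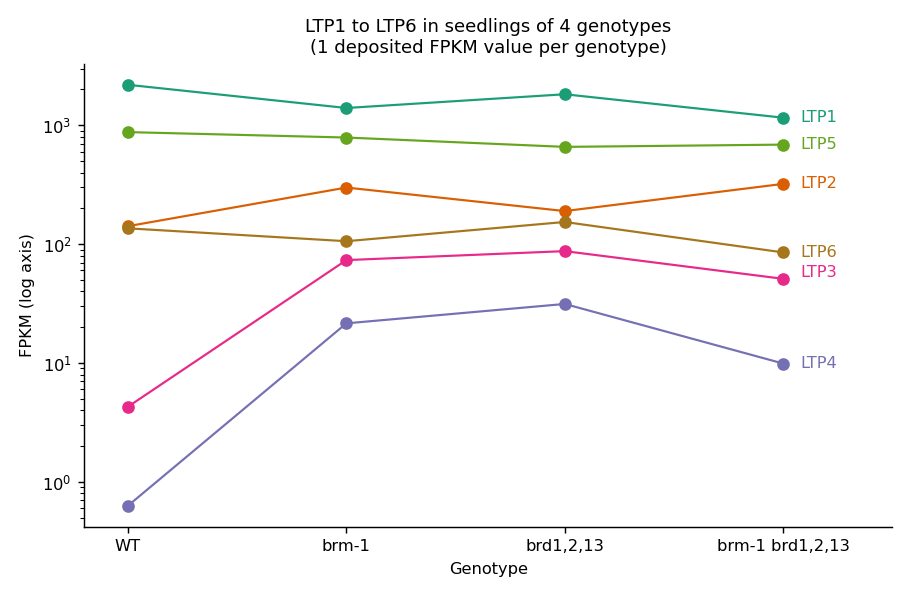
FPKM of LTP1 to LTP6 (log axis) in WT, brm-1, brd1,2,13 and the combined mutant, with 1 deposited value per genotype shown as a point and lines only joining the points of a gene. LTP3 and LTP4 stand at 4.28 and 0.630 FPKM in WT and at 9.89 FPKM or more in every mutant, while the other 4 genes stay within 2.27-fold of their lowest value.

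Summed over the family, the mutants had less lipid transfer transcript than WT. The 6 genes added up to 3346 FPKM in WT, 2684 in brm-1, 2941 in brd1,2,13 and 2312 in the combined mutant, or 0.351%, 0.287%, 0.310% and 0.247% of the FPKM total. LTP1 alone made up 65.4% of that sum in WT and 50.1% in the combined mutant. LTP3 and LTP4 together made up 0.147% in WT, 3.54% in brm-1, 4.03% in brd1,2,13 and 2.64% in the combined mutant. LTP1 and LTP5, the most abundant members, were below their WT level in all 3 mutants.

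To describe the loss of BRM, brm-1 was set against WT. A gene was counted as higher or lower when its FPKM differed at least 2-fold, among records with at least 1 FPKM in either genotype. LTP2, LTP3 and LTP4 were higher and no member was lower, 3 and 0 of 6, where 6.66% of 17947 records were higher and 5.63% lower by this rule. LTP4, at 0.630 FPKM in WT, passed the filter against WT only through its value in the mutant, here and in the other mutants. It could therefore not have been called lower, and the members were selected on these values. Nothing is read from the counts against WT beside the shares. LTP3 was 17.1-fold higher (log2 ratio 4.10) and LTP4 34.2-fold higher (log2 ratio 5.10), which placed them 48th and 24th from the top of all records. LTP2, whose product is a lipid transfer protein of epidermal cells, was 2.11-fold higher, near the limit. LTP1 was 1.57-fold lower, and LTP6 and LTP5 were 1.28-fold and 1.11-fold lower. The median log2 ratio of the 6 genes was 0.46, against 0.00 over all records (-0.00267).

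Loss of the 3 BRD proteins gave a similar picture for LTP3 and LTP4 and a weaker one for LTP1 and LTP2. In brd1,2,13 against WT, LTP3 and LTP4 were higher by the same rule, 2 of 6, and 0 were lower, where 3.22% of 17849 records were higher and 1.29% lower. LTP3 was 20.4-fold and LTP4 49.8-fold higher than in WT, 22nd and 10th from the top of all records. LTP2 was 1.34-fold higher and LTP1 1.201-fold lower. LTP6 was 1.13-fold higher, the opposite direction from its value in brm-1, and LTP5 was 1.33-fold lower. These differences for LTP1, LTP2, LTP5 and LTP6 are small, and without values per library they cannot be set against a spread.

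With BRM and the BRD proteins both lost, LTP2, LTP3 and LTP4 were again the members that were higher than in WT, 3 of 6, and 0 were lower, where 7.89% of 17970 records were higher and 6.66% lower. LTP3 was 11.9-fold and LTP4 15.7-fold higher, and LTP2 was 2.27-fold higher. LTP1 was 1.89-fold lower, just inside the 2-fold limit, LTP6 was 1.59-fold lower and LTP5 1.27-fold lower. The 3 comparisons with WT share the WT value of each gene, and for LTP4 that shared value is under 1 FPKM.

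**Figure D2:**
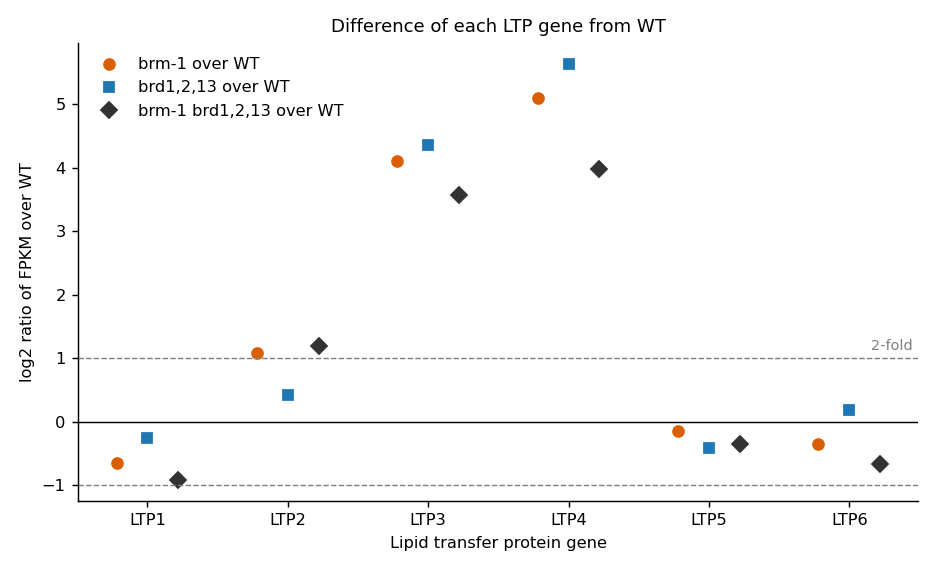
Log2 ratio of FPKM over WT for each LTP gene in brm-1, brd1,2,13 and the combined mutant, 1 point per mutant, with dashed lines at 2-fold. LTP3 and LTP4 lie between 3.57 and 5.64 in all 3 mutants and lowest in the combined mutant, LTP2 passes 2-fold in brm-1 and the combined mutant, and LTP1, LTP5 and LTP6 stay within 2-fold.

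The combined mutant was next set against each single mutant. Against brm-1, LTP4 was 2.18-fold lower and was the member past the limit, 1 of 6, where 0.536% of 17724 records were lower and 0.807% higher. LTP3 was 1.44-fold lower, LTP2 1.07-fold higher, and LTP1, LTP5 and LTP6 were 1.15-fold to 1.24-fold lower. Against brd1,2,13, LTP4 was 3.17-fold lower and again the member past the limit, 1 of 6, where 5.55% of 17975 records were lower and 5.46% higher. LTP3 was 1.71-fold lower in that pair, LTP6 1.80-fold lower, LTP1 1.57-fold lower and LTP2 1.69-fold higher, while LTP5 differed by 1.04-fold. Between the single mutants no member was past 2-fold, 0 of 6, where 8.52% of 17911 records were, and the ratios of brd1,2,13 over brm-1 lay between -0.66 for LTP2 and 0.54 for LTP4 on the log2 scale.

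Because the 4 genotypes form a factorial, each gene's value in the combined mutant could be set beside the product of the folds of the single mutants. For LTP1 the product gave 1162 FPKM and the deposited value was 1157 FPKM, a log2 difference of -0.01. LTP2, LTP5 and LTP6 differed from their products by -0.32, 0.21 and -0.49. For LTP3 the product gave 1495 FPKM against 51.0 FPKM found (log2 difference -4.87), and for LTP4 1074 FPKM against 9.89 FPKM (-6.76). LTP4 was the 8th lowest and LTP3 the 22nd lowest of 18168 records by this measure, whose median was 0.00 (-0.00366) and which was at or below -1 in 3.996% of records. These ranks follow in part from the selection: a gene far above a low WT value in both single mutants has a very large product. It can score low even where the combined mutant is the highest genotype, as for AT2G35070 (-5.68) and NAS2 (-3.88). Nothing is read from the ranks. By the levels themselves, a second loss on top of the first went with a lower, not a higher, level of LTP3 and LTP4. The combined mutant stayed above WT.

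Other records far above WT in both single mutants were examined for the same order of levels. There were 12 records at least 16-fold above WT in brm-1 and in brd1,2,13, LTP3 and LTP4 among them. Of the 12, 9 were lower in the combined mutant than in both single mutants, where 33.6% of 18168 records were. The 12 were picked for high values in both single mutants, which by itself favours a lower value in the combined mutant, so nothing is read from the count. The other 10 are all given, with FPKM in WT, brm-1, brd1,2,13 and the combined mutant. LEA7 (AT1G52690), a late embryogenesis abundant protein gene, had 0.658, 45.4, 99.97 and 14.1 FPKM. AT3G02480 and AT3G17520, annotated in RefSeq in the late embryogenesis abundant families, had 1.83, 70.9, 101.7 and 40.4 FPKM, and 0.0598, 6.49, 10.7 and 2.17 FPKM. A record of CAT3 (AT1G20620), a catalase gene, had 0.316, 35.4, 30.02 and 0.878 FPKM. These stood lower in the combined mutant than in either single mutant, as did the next 3 genes. TSPO (AT2G47770), a membrane protein gene, had 0.0311, 6.31, 8.57 and 1.96 FPKM. GLYI7 (AT1G80160), of the glyoxalase I family, had 0.249, 4.73, 5.33 and 2.07 FPKM, and AT5G15500, an ankyrin repeat gene, had 0.173, 7.71, 12.8 and 5.61 FPKM. The last 3 did not lie below both single mutants. AT2G35070 had 0.0622, 4.83, 3.64 and 5.53 FPKM. NAS2 (AT5G56080), a nicotianamine synthase gene, had 0.0941, 3.31, 2.19 and 5.23 FPKM, and a record that joins AT3G13850 and AT3G13855 had 0.0642, 1.60, 2.402 and 2.19 FPKM. The records of LEA7, CAT3, TSPO and the joined pair overlap other records. The 12 were not limited to genes with a record of their own. A value given here, as for CAT3, thus need not be the level of the whole gene.

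**Figure D3:**
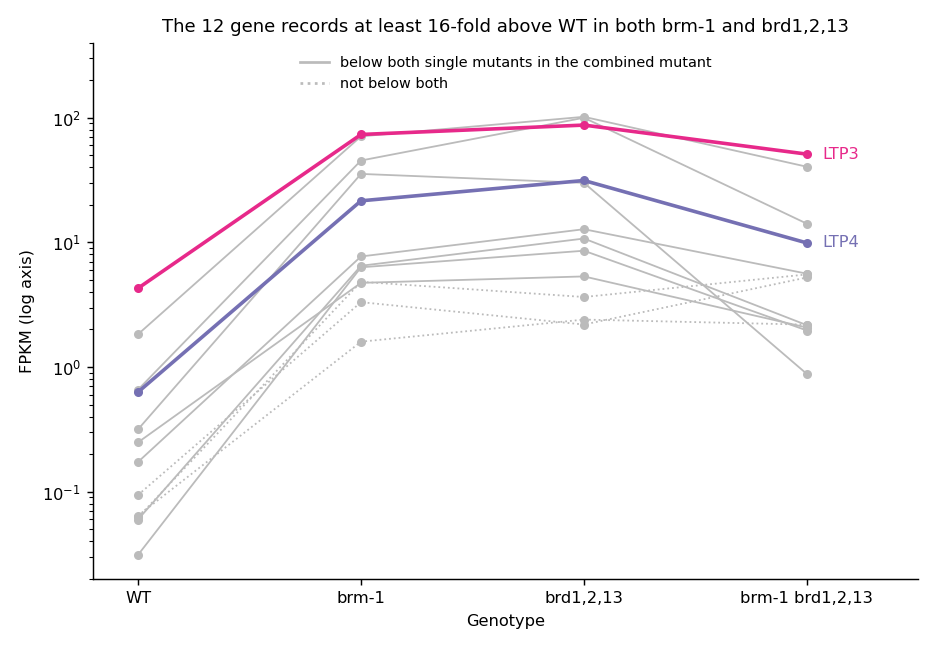
FPKM (log axis) in the 4 genotypes of the 12 gene records that were at least 16-fold above WT in both brm-1 and brd1,2,13, with LTP3 and LTP4 in colour and the others in grey. Solid lines are the 9 records that lie below both single mutants in the combined mutant, and dotted lines are the other 3.

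The genes with the most similar profiles over the 3 ratios against WT were sought among 12649 other records of 1 gene with at least 5 FPKM in the highest genotype. The measure was the Euclidean distance between the 3 log2 ratios. Nearest to LTP4 was AT3G02480 at a distance of 0.54, then AT5G15500 at 1.25, and then LTP3 at 1.68. Nearest to LTP3 were GLYI7 at 0.54, AT5G39520 at 1.24, in a record that overlaps another, and NATA1 (AT2G39030), of the acyltransferases, at 1.62, and after these came LTP4. LTP1 had Hsp70-15, AT1G22850 and PDLP2 within 0.063, LTP2 had MUR4, HIPL2 and AT1G15170 within 0.104, LTP5 had RS27A, AT2G25210 and AT2G06950 within 0.063, and LTP6 had AT1G26761, AT1G57590 and UBQ14 within 0.064. Several of these lie in records that overlap another, namely Hsp70-15, AT1G22850, MUR4, AT1G15170 and UBQ14. The tandem partners LTP1 and LTP2 were 2.81 apart by the same measure.

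The tandem pair differed from WT with opposite signs. LTP1 lay below and LTP2 above its WT value in each of the 3 mutants, though only LTP2 passed 2-fold, in brm-1 and the combined mutant. The ratio of LTP1 to LTP2 was 15.5 in WT, 4.67 in brm-1, 9.61 in brd1,2,13 and 3.60 in the combined mutant. The divergent pair was past 2-fold in the same direction in every mutant, but not by the same amount. The ratio of LTP3 to LTP4 was 6.80 in WT, 3.41 in brm-1, 2.78 in brd1,2,13 and 5.16 in the combined mutant. With the 2 records added, 4.91 FPKM in WT stood against 94.9 in brm-1, 118.7 in brd1,2,13 and 60.9 in the combined mutant, or 19.3-fold, 24.2-fold and 12.4-fold above WT.

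Another gene of the lipid transfer protein superfamily lies beside LTP3 and had the opposite pattern. AT5G59330 (chr5:23931318-23931889, TAIR10) begins 1572 bases beyond the LTP3 record, and RefSeq describes its product as a member of the bifunctional inhibitor, lipid transfer and seed storage albumin superfamily. Its coding sequence, 264 bases long, was 84.1% identical to LTP3 (222 of 264 bases) and 80.3% to LTP4 (212 of 264). It encodes 87 residues where LTP3 encodes 115. AT5G59330 had 14.6 FPKM in WT, 2.32 in brm-1, 2.39 in brd1,2,13 and 2.51 in the combined mutant, log2 ratios of -2.66, -2.62 and -2.54. It shared a run of 34 bases with the LTP3 transcript and one of 20 bases with that of LTP4, and whether reads were exchanged between the 3 genes was not tested. In WT it was thus the most abundant of the 3 genes in this cluster, and in every mutant the least abundant.

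The other genes around the cluster were mostly within 2-fold of WT. UXS3 and UBC7 on the LTP4 side lay between -0.38 and -0.02 on the log2 scale against WT in all 3 mutants. AT5G59305, a gene annotated as CLE-like and next to LTP4, had 0.417 FPKM in WT, 0.567 in brm-1, 0.861 in brd1,2,13 and 1.299 in the combined mutant. It lay above WT in each mutant, as LTP3 and LTP4 did, but passed the filter only in the combined mutant (log2 ratio 1.64). Of 24 single-gene records placed 3 to a side of the 4 loci, 13 passed the filter in some comparison and 2 were at least 2-fold from WT in any mutant, namely AT5G59330 and AT5G59305, where 17.5% of 18204 records were so, a share near that of the neighbours. The neighbours of LTP1 and LTP2, of LTP5 and of LTP6 that passed stayed within 2-fold. LTP12, the tapetum gene next to LTP5, was listed at 0 in 3 genotypes and at 0.0973 FPKM in the combined mutant.

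**Figure D4:**
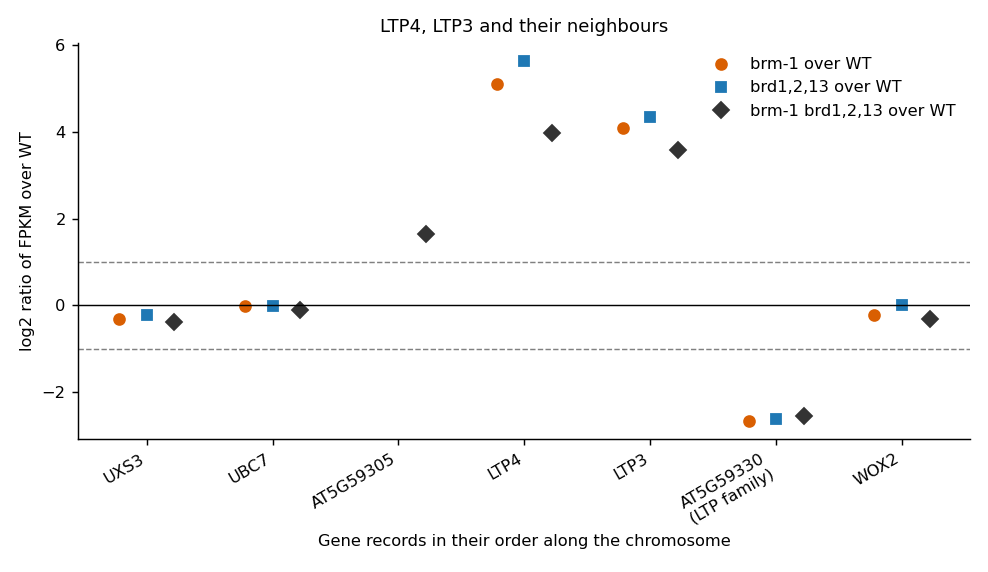
Log2 ratio of FPKM over WT for LTP4, LTP3 and the records on either side in their order along chromosome 5, 1 point per mutant, dashed lines at 2-fold. LTP4 and LTP3 lie at 3.57 or above, AT5G59330 lies between -2.66 and -2.54, the flanking UXS3, UBC7 and WOX2 (the more abundant of its records) lie within 2-fold, and a point is missing where a record did not reach 1 FPKM in either genotype.

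The 500 bases before each RefSeq gene start were searched on both strands for short motifs of known plant transcription factor families. The core ACGTG of abscisic acid response elements was found in the windows of LTP4 and LTP2 and in 35.5% of 27443 protein-coding genes. LTP4 had 3 overlapping or nearby matches, starting 414, 378 and 377 bases before the gene start, of which the last 2 are the 2 strands of 1 palindrome CACGTG. That palindrome, the G-box, was present in 9.35% of all windows. The stretch that holds them is given because LTP4 had the largest fold of the family (chr5:23926294-23926413, TAIR10.1, minus strand, 5′ to 3′, the matches in capitals).
LTP4 upstream: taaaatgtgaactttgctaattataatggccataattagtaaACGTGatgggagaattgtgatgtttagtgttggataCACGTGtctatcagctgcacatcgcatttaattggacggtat
LTP3 had neither motif in its window, nor had LTP1, LTP5, LTP6 or AT5G59330. LTP2 had 3 matches to CCGAC, the core of the dehydration and cold response element, and 3.74% of all windows held 2 or more. TTGAC, the core of the W-box bound by WRKY factors, occurred in the windows of all 6 members and in 67.4% of all windows. The L1-box sequences TAAATGCA and TAAATGTA, known from epidermal genes, occurred in no member window and in 3.09% and 5.86% of all windows. A match is a description of the letters only.

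A further 14 lipid transfer genes, listed by name but with earlier results of these data known, were examined as a comparison. Of 10 other lipid transfer genes (LTP7 to LTP12, DIR1, DIR1-LIKE, LTPG1 and LTPG2) 7 passed the filter. None was 2-fold higher than WT in any mutant. Over all records 6.66% were higher in brm-1, 3.22% in brd1,2,13 and 7.89% in the combined mutant, so 0 of 7 is near these shares. The medians of their log2 ratios were -0.49 in brm-1, -0.14 in brd1,2,13 and -0.50 in the combined mutant. DIR1, a lipid transfer protein of systemic acquired resistance, was the one past the limit, lower in brm-1, where 5.63% of all records were lower. It had 198.4 FPKM in WT, 90.7 in brm-1, 157.1 in brd1,2,13 and 104.4 in the combined mutant. LTPG1 and LTPG2, which are anchored to the plasma membrane and act in wax export, had log2 ratios between -0.50 and -0.10 against WT, LTPG1 in a record that overlaps another. LTP9, LTP11 and LTP12 stayed below 0.5 FPKM in every genotype.

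The AZI group, hybrid proline-rich proteins with a lipid transfer domain, had medians of 0.62 in brm-1, -0.12 in brd1,2,13 and 0.92 in the combined mutant on the log2 scale against WT. All 4 of its genes passed the filter. AZI1 had 351.7 FPKM in WT, 397.1 in brm-1, 320.9 in brd1,2,13 and 363.6 in the combined mutant. EARLI1 had 259.4, 338.3, 227.4 and 437.1 FPKM in the same order. Neither passed 2-fold. AZI3 had 33.0 FPKM in WT, 86.6 in brm-1, 54.5 in brd1,2,13 and 109.6 in the combined mutant. AZI4 had 10.7, 19.2, 9.85 and 22.6 FPKM. AZI3 was thus past 2-fold in brm-1, and both were in the combined mutant, while none of the 4 genes of the group was in brd1,2,13. Over all records 6.66% were higher in brm-1, 7.89% in the combined mutant and 3.22% in brd1,2,13. Like LTP2, and unlike LTP3 and LTP4, EARLI1, AZI3 and AZI4 were highest in the combined mutant.

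The genes that make the cuticle, the lipid layer that surface lipid transfer proteins are thought to supply, were taken as the last comparison. Of 10 wax genes with a record of their own 9 passed. CER1 (AT1G02205), of alkane synthesis, had the order of levels seen for LTP3 and LTP4, with 11.5 FPKM in WT, 27.7 in brm-1, 30.04 in brd1,2,13 and 14.1 in the combined mutant. The share of all records with that order was not counted, so nothing is read from the likeness. WSD1, the wax ester synthase, had 1.40, 2.04, 3.38 and 1.27 FPKM, and CER4, the alcohol-forming reductase, had 2.12, 0.752, 1.52 and 0.893 FPKM. In brm-1 1 wax gene was 2-fold higher and 1 lower, in brd1,2,13 2 were higher, and in the combined mutant 1 was lower, with medians of -0.04, 0.10 and -0.14 on the log2 scale. Over all records the shares higher and lower were 6.66% and 5.63% in brm-1, 3.22% and 1.29% in brd1,2,13, and 7.89% and 6.66% in the combined mutant.

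All 10 cutin genes passed, and none was 2-fold higher. In brm-1 2 were 2-fold lower, in brd1,2,13 0, and in the combined mutant 3 (over all records 5.63%, 1.29% and 6.66%), with medians of -0.67, -0.24 and -0.77 on the log2 scale. DCR, an acyltransferase of cutin synthesis, had 34.6 FPKM in WT, 15.2 in brm-1, 29.0 in brd1,2,13 and 11.4 in the combined mutant. CYP77A6, which hydroxylates cutin monomers, had 6.13, 2.52, 4.98 and 2.64 FPKM, and CYP86A4, a fatty acid omega-hydroxylase, had 6.45, 4.19, 5.40 and 3.10 FPKM. Like LTP1, 7 of the 10 cutin genes were highest in WT and lowest in the 2 genotypes that lack BRM, an order found in 20.9% of all 18168 records. It was not particular to cutin genes: 5 of 7 other lipid transfer genes had it, 3 of 9 wax genes, 2 of 7 regulators of cuticle genes and 0 of 4 AZI genes. The other 3 cutin genes were LACS2, an acyl-CoA synthetase gene, with 21.5, 31.1, 32.4 and 27.2 FPKM, GPAT4, an acyltransferase gene, with 42.1, 42.7, 36.5 and 39.5 FPKM, and BDG1, with 19.0, 19.7, 22.7 and 20.3 FPKM in a record that overlaps another.

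Of 9 regulators of cuticle genes 7 passed. In brm-1 1 was 2-fold higher and 1 lower (over all records 6.66% and 5.63%). In brd1,2,13 1 was higher and 0 were lower (3.22% and 1.29%). In the combined mutant 1 was higher and 2 were lower (7.89% and 6.66%). SHN2, of the SHINE factors, had 1.52 FPKM in WT, 3.18 in brm-1, 3.70 in brd1,2,13 and 1.89 in the combined mutant. This was again the order seen for LTP3, at a low level, and the share of all records with it was not counted. DEWAX, a repressor of wax genes, had 64.8, 116.4, 57.9 and 162.4 FPKM. MYB94, an activator of wax genes, had 6.57, 2.73, 3.80 and 2.95 FPKM, and MYB106, of cuticle and trichome development, had 4.33, 2.68, 3.89 and 1.63 FPKM, in a record that overlaps another. Over the wax, cutin and regulator lists 10 of the 26 genes that passed were at least 2-fold from WT in some mutant, where 17.5% of all records were.

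**Figure D5:**
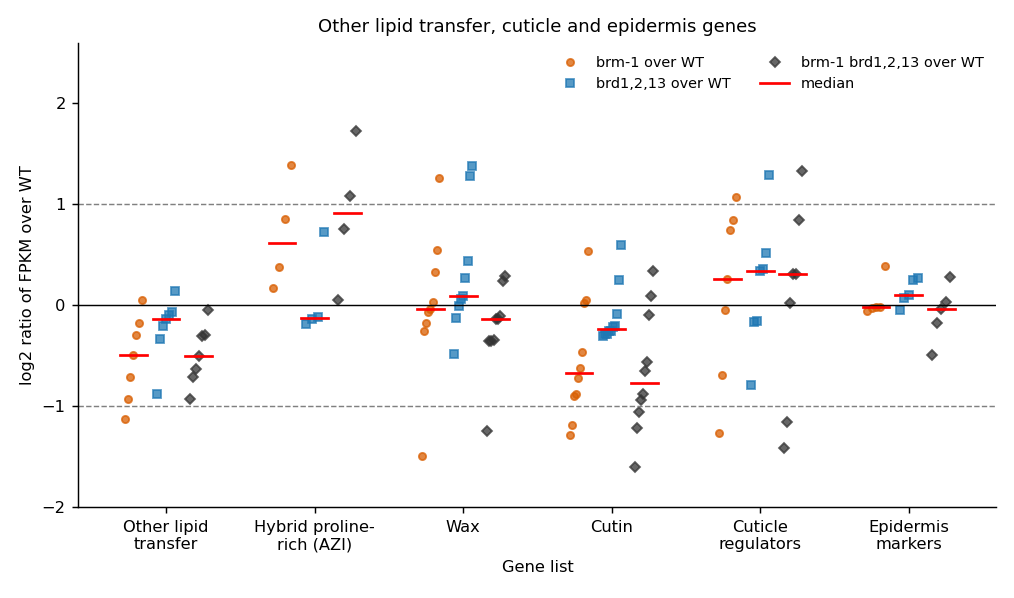
Log2 ratio of FPKM over WT for the listed genes that passed the filter, by list, 1 point per gene and mutant, with red bars at the medians and dashed lines at 2-fold. The other lipid transfer genes and the cutin genes lie mostly below 0 in every mutant, with medians nearest to 0 in brd1,2,13. The AZI group lies above 0 in both genotypes without BRM, and the epidermis markers lie within 0.50 of 0.

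Marker genes and the mutated genes were examined in each genotype. RBCS1A and LHCB1.3, markers of green tissue, stood at 16716 and 13378 FPKM in WT and differed from WT by no more than 0.12 on the log2 scale. The 5 epidermis markers ATML1, PDF1, PDF2, FDH and ACR4 lay between -0.50 and 0.39 and summed to 371.3, 404.8, 398.0 and 348.7 FPKM. The 3 root markers CASP1, COBL9 and EXPA7 were lower in all 3 mutants, with a summed level of 30.5 FPKM in WT against 20.2, 17.6 and 17.1. The part of either in the LTP values was not tested, and in whole seedlings fewer cells of a type and less RNA per cell cannot be told apart. Of the tapetum markers LTP12, A9 and MS1, none was above 0.0973 FPKM in any genotype. BRM had 17.5 FPKM in WT, 0.0954 in brm-1, 18.5 in brd1,2,13 and 0.120 in the combined mutant, in a record that overlaps another. BRD1 had 12.7, 15.7, 4.36 and 4.76 FPKM in the same order, and BRD13 had 14.4, 18.7, 0.223 and 0.0194 FPKM. BRD2 had 7.04, 22.5, 3.05 and 3.079 FPKM. The mutated genes were thus lowest in the genotypes that carry their mutations, and BRD2 was 3.20-fold higher in brm-1 than in WT.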

How the data were processed

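RNA from 12 seedling libraries, 3 per genotype, had been processed by the authors with TopHat, Cufflinks 2.1.1 and Cuffdiff 2.1.1 on TAIR10, per the labels; whether counting used strand is not known here. The deposited table held 31837 gene records in 6 pairs of genotypes, with FPKM computed by the authors as 1 value per genotype. Its fold changes, test statistics and p and q values are the authors' own comparisons and were not used, so no test and no p value is given. A value was the same in each of its repeats. Log2 ratios were taken without a pseudocount, among records of at least 1 FPKM in either genotype and above 0 in both, and 2-fold was the limit. Records that join several genes (1944) stayed out of the lists. Starts in the table count from 0, and 1 was added.

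The members and gene lists were chosen with earlier results of these data known. Named were all 6 members, up to 6 genes per list past 2-fold against WT, the 3 nearest profiles and the neighbours. Also named were the 12 records at least 16-fold above WT in both single mutants, and the marker and mutated genes. Some list genes within 2-fold were named beside these. Sequences came from RefSeq TAIR10.1; the coding span lay inside the record for 97.2% of 23213 genes and for all 6 members, and coding sequences were aligned with Biopython 1.88. The ratios were tested on simulated data. Alternatives were other pseudocounts, filters, folds and scalings.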

Additional observations from a re-analysis of the deposited data

Results flagged for a closer look

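LTP4 differed between genetic backgrounds. Loss of the BRD proteins went with a log2 ratio of 5.64 where BRM was present (brd1,2,13 over WT) and of -1.12 where BRM was absent (the combined mutant over brm-1). Loss of BRM went with a log2 ratio of 5.10 where the BRD proteins were present (brm-1 over WT) and of -1.67 where they were absent (the combined mutant over brd1,2,13). In both cases the ratios had opposite signs and each passed 2-fold. The 2 differences are the same quantity seen from either side, and the difference was not tested, since there is 1 value per genotype. LTP4 was selected on these same values, and its WT value is only 0.630 FPKM. A pick for high values in both single mutants by itself favours such opposite signs. The share of all records with them was not counted, so nothing is read from the pattern.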

How the results depend on the processing

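No paired analysis was possible because the table holds 1 value per genotype, although the labels number the libraries 1 to 3 in each; for the same reason no replicate could be left out. Scaling each genotype by its FPKM sum or centring on the median record shifted no member's log2 ratio by more than 0.03. A shift of 0.1 on the log2 scale, or of 1.5 times in a count, was taken as a change. With 0.1 FPKM added, the log2 ratios of LTP4 over WT became 4.89 in brm-1, 5.43 in brd1,2,13 and 3.78 in the combined mutant. With 1 FPKM added they became 3.79, 4.31 and 2.74, and those of LTP3 3.82, 4.06 and 3.30. The difference of LTP4 from the product of the single mutants became -6.55 with 0.1 FPKM and -5.36 with 1 FPKM added, and that of LTP3 -4.58 with 1 FPKM. The sign of a member's log2 ratio past 2-fold could not change under these alternatives. A pseudocount keeps the sign of a ratio, and the scalings shifted none by more than 0.03. Nothing is read from the unchanged signs.

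With 1.5-fold as the limit, 5 members in place of 3 differed between the combined mutant and WT, 5 in place of 1 between the combined mutant and brd1,2,13, and 1 in place of 0 between the single mutants. With 4-fold as the limit, 0 members differed between the combined mutant and either single mutant. The other lipid transfer genes past the limit in any mutant numbered 7 at 1.5-fold and 0 at 4-fold, in place of 3. The cuticle genes past it numbered 6 with 1 FPKM added, 6 with a filter of 5 FPKM and 0 at 4-fold, in place of 10. The share of all records past the limit in any mutant was not counted under these alternatives. Nothing is read from the counts of either group. The depth of the libraries is unknown, and the low WT values of LTP3 and LTP4 set how large their folds are.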
